A study of Oryctolagus cuniculus with 4 samples.

Results

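CCL2, CXCL8 and CCL19 are 3 secreted chemokine genes, and their UMIs (unique molecular identifiers, each of which stands for 1 captured RNA molecule) were followed through the cells of the rabbit bladder mucosa. They are 3 of 18475 features in the count tables, of which 9771 carry a gene symbol. The 3 genes were selected for their UMIs per cell type and sample in these same libraries, so their levels are given as a description with no test.

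Droplet-based single-cell RNA sequencing (Chromium 3' kit, version 3) was performed on adult New Zealand rabbits. Injury_1 and Injury_2 came from 2 rabbits whose bladder mucosa had been cut away over a focal area 10 days earlier, when new urothelium had just closed the wound, and Normal_1 and Normal_2 came from 2 rabbits with undisturbed mucosa. Each rabbit gave 1 library, no sham-operated group was included, and only 1 time after injury was sampled. Pieces of mucosa were dissociated with warm collagenase before capture, and the duration for each sample is not given in the sources used here.

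Chemokines are small secreted proteins that guide leukocytes through receptors of the G protein-coupled class. CCL2 acts on CCR2 and draws monocytes out of the blood, CXCL8 (interleukin-8) acts on CXCR1 and CXCR2 and draws neutrophils, and CCL19 acts on CCR7 and guides dendritic cells and T lymphocytes within lymphoid tissue. Decoy receptors such as ACKR1, ACKR2 and ACKR4 bind chemokines without the usual signal. CCL2 and CXCL8 are induced by inflammatory cytokines in stromal, endothelial and myeloid cells, whereas CCL19 is best known from fibroblastic cells and blood vessel walls of lymphoid organs.

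Of 25659 barcodes, 21945 were kept, 6081 and 5529 from Injury_1 and Injury_2 and 4308 and 6027 from Normal_1 and Normal_2, with median depths between 4814 and 7186 UMIs. Normal_1 was the shallowest library. The cells fell into 27 clusters, of which 20 could be named by fixed markers and were joined into 12 classes, and 7 clusters with 1460 cells stayed unnamed. Although the tissue is labelled urothelium, epithelial-like cells were 6.98% of the kept cells, fibroblast-like cells were 40.7% and blood endothelial-like cells 24.2%. Barcode sequences that occur in more than 1 library numbered 51 among the kept cells. The unit of level is CPM, which divides a gene's UMIs by all UMIs of the class in that sample and scales to 1e6, and a sample entered a mean if it held 10 or more cells of that class.

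Over all kept cells, the UMIs of the 3 chemokines were more frequent in both injured samples than in both normal samples. CCL2 stood at 1342 and 903 CPM in Injury_1 and Injury_2 and at 346 and 435 CPM in Normal_1 and Normal_2, and the injured mean was 2.87 times the normal mean. CXCL8 stood at 5563, 4268, 609 and 1110 CPM in the same order, a ratio of 5.72. CCL19 stood at 35.2, 28.6, 2.50 and 5.93 CPM, a ratio of 7.57. The groups did not overlap for any of the 3, which holds for 22.4% of all genes that reached 20 CPM, and nothing is read from this since the genes were chosen on these values. In total, 127094 UMIs of CCL2 were found in 6345 cells, 498578 of CXCL8 in 9620 cells and 3141 of CCL19 in 461 cells.

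The cells that carried these UMIs differed from one chemokine to the next. Of the CCL2 UMIs, 35.6% were in blood endothelial-like, 34.1% in fibroblast-like, 17.4% in pericyte-like and 7.0% in macrophage-like cells. These shares varied between samples, from 19.6 to 69.8% for blood endothelial-like and from 12.4 to 46.6% for fibroblast-like cells, which led in Injury_2. Of the CXCL8 UMIs, 44.7% were in macrophage-like cells, which were 3.5% of the kept cells, and a further 18.7% were in an unnamed cluster of 236 cells led by SERPINB2, LYZ, S100A8 and IL1B (cluster 16). Of the CCL19 UMIs, 82.6% were in pericyte-like cells, which were 6.2% of the kept cells.

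**Figure D1:**
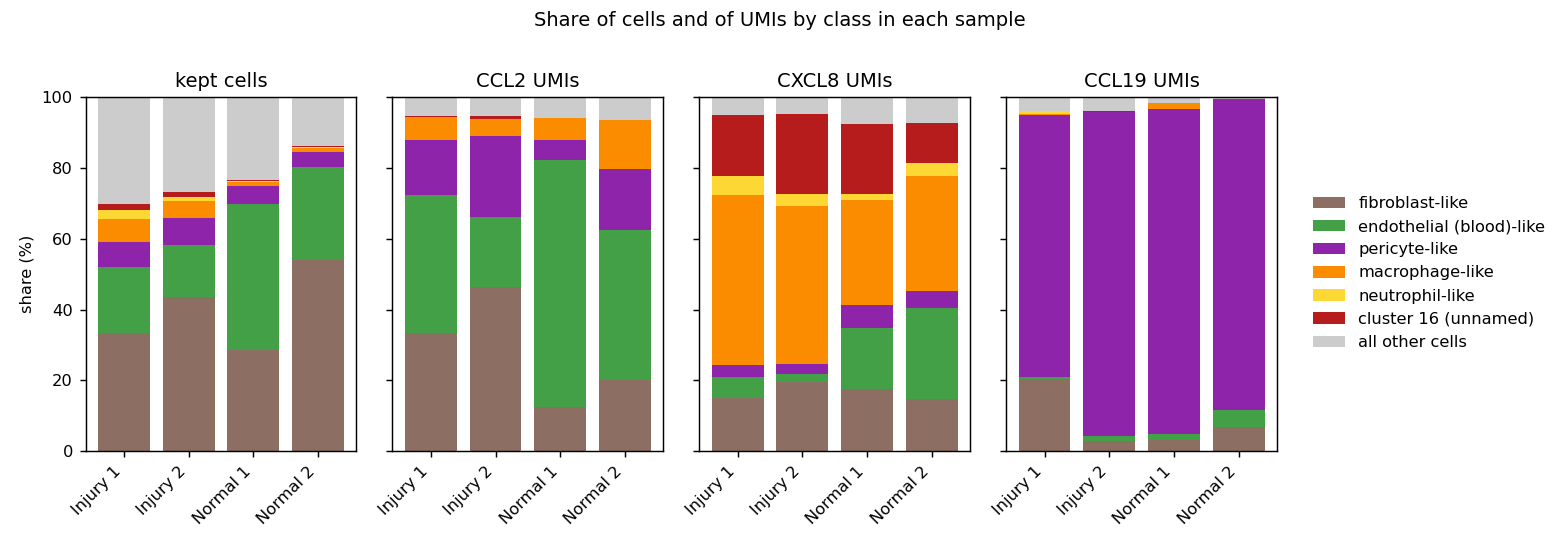
Stacked bars of the share (%) of kept cells (left panel) and of the UMIs of CCL2, CXCL8 and CCL19 (other panels) that belong to each class, 1 bar per sample. Macrophage-like cells and cluster 16 hold most CXCL8 UMIs of the injured samples while being a small share of cells, and pericyte-like cells hold between 74.1 and 91.9% of the CCL19 UMIs of each sample.

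The mix of cell classes differed between the conditions, and this moved with the totals. Macrophage-like cells were 6.5% and 4.9% of the injured and 1.2% and 1.1% of the normal cells. When each class was given the same share of UMIs in every sample, the ratio of injured to normal was 1.77 for CXCL8, 2.63 for CCL2 and 5.73 for CCL19. At that equal mix CXCL8 was 3731 and 3270 CPM in the injured and 1356 and 2596 CPM in the normal samples. The equal mix therefore left CCL2 and CCL19 near their first ratios and lowered that of CXCL8.

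CCL2, the monocyte attractant, was most abundant in macrophage-like cells with a mean of 3192 ± 3067 CPM (SD, n = 4) and in pericyte-like cells with 2982 ± 1900 CPM. It followed in neurone or glia-like cells with 1798 ± 676 CPM (n = 3), in blood endothelial-like cells with 1405 ± 1087 CPM and in fibroblast-like cells with 600 ± 520 CPM. Neighbours in this order overlapped in their sample values, so their ranking is not resolved by 4 samples. Smooth muscle-like cells (95.0 ± 71.2 CPM), T and NK-like cells (31.9 ± 38.3 CPM) and epithelial-like cells (25.9 ± 16.4 CPM) lay below, with every sample under 200 CPM. Lymphatic endothelial-like and mast-like cells held 9 and 10 CCL2 UMIs in all.

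In pericyte-like cells, the contractile cells that wrap small vessels, CCL2 was 4457 and 4555 CPM in Injury_1 and Injury_2, and 584 and 2332 CPM in Normal_1 and Normal_2. The 2 injured samples were close to each other and the 2 normal samples were far apart, with a ratio of means of 3.09, and without Normal_2 the log2 difference of 1.62 became 2.93, against 0.95 without Normal_1. In blood endothelial-like cells the values were 2958, 1351, 624 and 685 CPM, with a ratio of 3.29. The normal samples were close together here and Injury_1 was far above Injury_2, without which the log2 difference of 1.70 became 2.16, against 1.03 without Injury_1.

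In fibroblast-like cells, the collagen-producing cells of the lamina propria, CCL2 was 1201 and 866 CPM in Injury_1 and Injury_2 and 165 CPM in both Normal_1 and Normal_2. The samples of each condition were close together in these totals. The injured mean was 1034 ± 237 CPM and the normal mean 165 ± 0.22 CPM (n = 2 each), a ratio of 6.25. Without the 1% of cells with the most CCL2 UMIs, the normal samples were 118 and 52.1 CPM, no longer close together. The injured samples were then 1000 and 661 CPM. Smooth muscle-like cells showed the same order at a low level, with 86.8, 196, 29.5 and 68.0 CPM and a log2 difference of 1.36, which was 0.72 without Injury_2 and 1.94 without Normal_2. In epithelial-like cells, CCL2 stood at 33.4, 27.6, 2.47 and 40.1 CPM, and the conditions overlapped.

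Macrophage-like cells differed in direction. Their CCL2 level was 1362 CPM in Injury_1 and 1037 CPM in Injury_2 but 2708 CPM in Normal_1 and 7664 CPM in Normal_2. Both normal samples lay above both injured samples, the normal mean was 4.32 times the injured mean, and the normal values came from only 50 and 65 cells. Without Normal_2 the difference on the log2 scale was -1.17 in place of -2.10, and without Normal_1 it was -2.67. CCL2 in the 4 macrophage-like samples was 0.37, 0.56, 0.53 and 0.76 UMIs per UMI of the C1Q chains C1QA, C1QB and C1QC, in the order Injury_1, Injury_2, Normal_1 and Normal_2. On this scale the conditions overlapped, since Injury_2 lay above Normal_1.

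**Figure D2:**
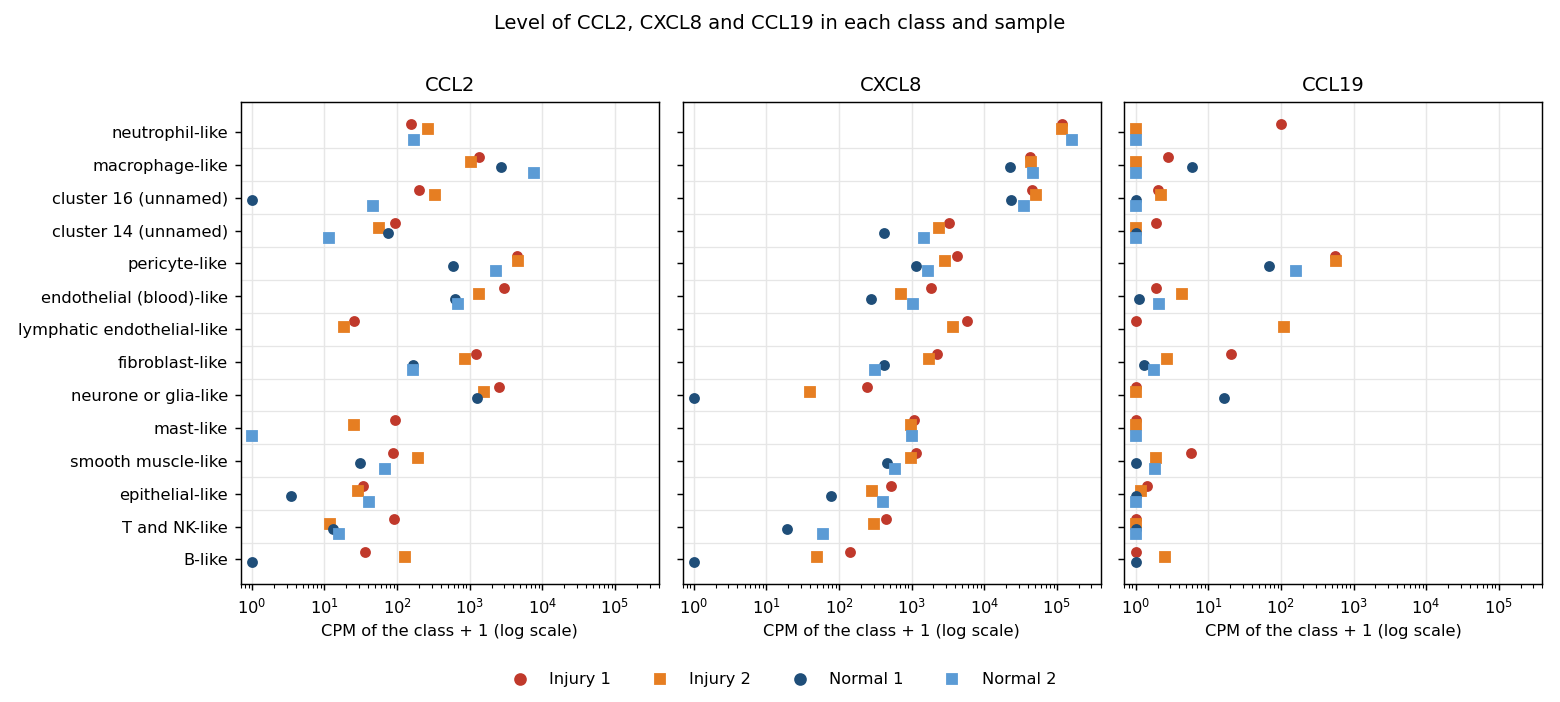
Level of each chemokine (CPM of the class plus 1, log axis) in 12 classes and 2 unnamed clusters, with 1 point per sample that has at least 10 cells of the class, red and orange for injured and dark and light blue for normal. CCL2 in pericyte-, blood endothelial- and fibroblast-like cells has both injured points to the right, CCL2 in macrophage-like cells has both to the left, and CCL19 stands out in pericyte-like cells.

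The count of chemokine and class pairs with separate groups can be read beside the same measure over all genes. In pericyte-like cells all 3 chemokines had both injured samples above both normal samples, as had 19.4% of genes. In fibroblast-like and smooth muscle-like cells all 3 were ordered this way too (16.8% and 19.6% of genes), although CCL19 stayed under 20 CPM there, the level a gene had to reach to count in these shares, and rested on 6 UMIs in smooth muscle-like cells. In epithelial-like cells the 4 CCL19 UMIs were all from injured samples. The order was also seen in blood endothelial-like cells for CCL2 (22.7% of genes) and in T and NK-like cells for CXCL8 (24.7% of genes). In macrophage-like cells CCL2 had both injured samples below both normal samples, as had 18.1% of genes. These contrasts are among those behind the choice of the genes, so no inference is drawn from them.

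The gap in CCL2 was also present inside single clusters of the fibroblast- and endothelial-like classes. Of the 2025, 2405, 1233 and 3258 fibroblast-like cells of Injury_1, Injury_2, Normal_1 and Normal_2, cluster 2 held 587, 582, 214 and 472 and cluster 5 held 559, 563, 223 and 314. In cluster 2, led by MFAP5, SFRP2 and PCOLCE2, CCL2 was 2214 and 1800 CPM in the injured and 321 and 687 CPM in the normal samples. In cluster 5, led by COCH, TNFAIP6 and APOD, it was 1284 and 1189 CPM in the injured and at most 505 CPM in the normal samples.

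CCL2 was low in other fibroblast-like cells. In cluster 3, led by PTPRQ, HHIP and WIF1, it was 46.3, 14.02, 83.9 and 15.7 CPM, and the conditions overlapped. Clusters 1 and 6 had both injured samples above both normal samples at means of 121 and 241 CPM. Among endothelial-like clusters, CCL2 averaged 1881 CPM in cluster 4, which was led by the adhesion molecules SELP and SELE of venules, 1264 CPM in cluster 0, led by ESM1 and KDR, and 318 CPM in cluster 11, led by ATP2A3 and BMX. All 3 endothelial-like clusters had both injured samples above both normal samples. The share of all genes with this order was 22.7% in the whole blood endothelial-like and 16.8% in the whole fibroblast-like class. It was not computed for single clusters, so nothing is read from these counts.

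**Figure D3:**
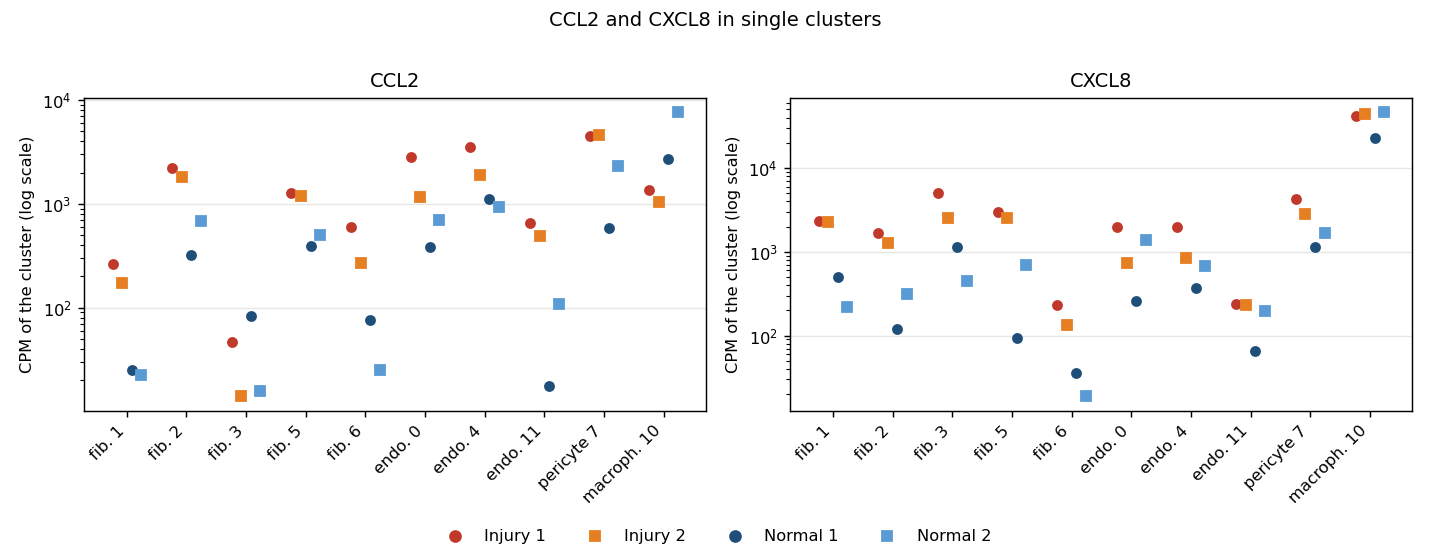
CPM (log axis) of CCL2 (left) and CXCL8 (right) in single fibroblast-like (fib.), endothelial-like (endo.), pericyte-like and macrophage-like clusters, 1 point per sample with colours as above. CCL2 is low in fibroblast-like cluster 3 and high in clusters 2 and 5, whereas CXCL8 is lowest of the fibroblast-like clusters in cluster 6.

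CXCL8, the neutrophil attractant, was most abundant in neutrophil-like cells, macrophage-like cells and cluster 16. Neutrophil-like cells, defined by the calgranulins S100A8, S100A9 and S100A12 among other markers, held 117223 CPM in Injury_1, 118042 in Injury_2 and 160640 in Normal_2. Normal_2 had 15 such cells and Normal_1 only 5. The mean was 131969 ± 24834 CPM (n = 3), at a median depth of 699 UMIs per cell. Each of the 213 cells had a CXCL8 UMI.

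Macrophage-like cells carried 42045 and 44633 CPM of CXCL8 in Injury_1 and Injury_2 and 22645 and 46646 CPM in Normal_1 and Normal_2. Normal_2 was the highest and Normal_1 the lowest, so the conditions overlapped, and the mean was 38992 ± 11060 CPM. The log2 difference of 0.32 was -0.11 without Normal_1 and 0.94 without Normal_2. Cluster 16 carried 44934, 50978, 23659 and 35443 CPM, and its range overlapped that of macrophage-like cells. Of the 779 macrophage-like cells, 766 had a CXCL8 UMI, with a median of 274 UMIs in these.

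Among the other classes CXCL8 was highest in lymphatic endothelial-like cells, at 5831 CPM in Injury_1 and 3738 CPM in Injury_2. Normal_1 had no such cell and Normal_2 had 9, so no comparison was made there. Pericyte-like cells had 4271, 2840, 1152 and 1681 CPM, with both injured samples above both normal samples and a ratio of means of 2.51. Smooth muscle-like cells had 1158, 994, 460 and 589 CPM, with a ratio of 2.05.

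Fibroblast-like cells had 2245 and 1724 CPM of CXCL8 in Injury_1 and Injury_2 and 414 and 311 CPM in Normal_1 and Normal_2, a ratio of 5.48. All 5 fibroblast-like clusters had both injured samples above both normal samples. The share of all genes with this order was 16.8% in the whole class and was not computed for single clusters, so nothing is read from that count. Cluster 3, where CCL2 was scarce, had 5008 and 2528 CPM of CXCL8 in the injured and 1140 and 444 CPM in the normal samples. Cluster 6, led by LVRN, FMO2 and INMT, was the lowest, with 233, 136, 35.7 and 18.9 CPM.

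In blood endothelial-like cells CXCL8 was 1823, 708, 271 and 1052 CPM, and Normal_2 exceeded Injury_2. The log2 difference of 0.93 became 2.18 without Normal_2 and 0.10 without Injury_1. In epithelial-like cells CXCL8 was 526 and 286 CPM in Injury_1 and Injury_2 and 77.8 and 401 CPM in Normal_1 and Normal_2, again with overlap, and without Normal_2 the log2 difference went from 0.74 to 2.25, and to 0.02 without Normal_1. In epithelial-like cluster 9, led by SPP1, it was 572 and 184 CPM in the injured and 34.9 and 35.9 CPM in the normal samples, whereas cluster 12, led by SERPINB5, AQP3 and KRT5, had 481, 396, 114 and 516 CPM.

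Free RNA from lysed cells can give UMIs to cells that do not make a transcript, so the share of cells with a UMI was set beside T and NK-like cells, which are not known as a main source of these chemokines. The share of cells that would keep a CXCL8 UMI on random thinning to 1000 UMIs was calculated for cells with at least 1000 UMIs. With the cells of all samples pooled, it was 21.0% in fibroblast-like, 25.9% in blood endothelial-like, 41.1% in pericyte-like, 14.8% in epithelial-like and 7.91% in T and NK-like cells. T and NK-like cells numbered 567, 316, 98 and 106 in Injury_1, Injury_2, Normal_1 and Normal_2, and their shares there were 11.1, 6.15, 1.69 and 1.98%. Each of the other classes named here lay above T and NK-like cells in every sample. Without thinning the pooled shares were 37.3%, 46.0%, 55.3%, 45.9% and 20.3%, at median depths of 7238, 5825, 4336, 13733 and 3232 UMIs. A CCL2 UMI remained after thinning in 14.1%, 24.1%, 39.1%, 2.10% and 2.52% of the same pooled classes, and was found in 26.4%, 38.4%, 50.1%, 13.3% and 6.90% without thinning. For CCL2 the thinned share of epithelial-like cells was below that of T and NK-like cells in Injury_1 and Normal_1 and above it in Injury_2 and Normal_2, and the part of free RNA was not tested.

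T and NK-like cells had 440.5 and 300.2 CPM of CXCL8 in the injured and 18.4 and 59.9 CPM in the normal samples, a log2 difference of 2.95 that was 3.74 without Normal_2 and 2.44 without Normal_1. Of their 1294 CXCL8 UMIs, 50% or more lay in 2 cells, and 175 of the 221 positive cells had a single UMI. After the 1% of cells with the most CXCL8 UMIs had been left out of each sample, a step chosen after the data had been seen, the level was 99.2 and 44.3 CPM against 9.37 and 11.03 CPM. The same step left fibroblast-like cells at 1933 and 1479 CPM against 286 and 170 CPM.

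The ratio of CXCL8 to transcripts used as markers of neutrophil-like and macrophage-like cells differed between classes and samples. Per UMI of S100A8, S100A9 and S100A12, neutrophil-like cells had 1.33, 1.93, 0.84 and 8.41 CXCL8 UMIs in Injury_1, Injury_2, Normal_1 and Normal_2. These rested on 143, 50, 5 and 15 cells, and the Normal_2 ratio on 222 calgranulin UMIs. Fibroblast-like cells had 117, 84.1, 68.4 and 18.3, and pericyte-like cells had 87.6, 268, 322 and 242. Per UMI of the C1Q chains, macrophage-like cells had 11.5, 24.2, 4.45 and 4.62 CXCL8 UMIs and fibroblast-like cells 441, 3652, 267 and 221. Blood endothelial-like cells had 8.90, 6.90, 1.36 and 3.73 CXCL8 UMIs per calgranulin UMI and epithelial-like cells 5.10, 0.40, 31.5 and 101, so that the ratio was below that of neutrophil-like cells in Normal_2 for the former and in Injury_2 for the latter. Calgranulin UMIs stood at 712 CPM in epithelial-like and 64.4 CPM in macrophage-like cells of Injury_2, and their source in epithelial-like cells was not tested. The part of free RNA in the CXCL8 levels was not tested.

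Within a class, cells were counted from the largest count down until they held 50% of a chemokine's UMIs. For any gene this takes at most about 50% of the cells, and no other gene was set beside the chemokines. Among pericyte-like cells, 36 of 1350 held 50% of the CCL19 UMIs. Among fibroblast-like cells, 206 of 8921 held 50% of the CCL2 UMIs and 314 held 50% of the CXCL8 UMIs. Among macrophage-like cells, 216 of 779 were needed for 50% of the CXCL8 UMIs but 40 for 50% of the CCL2 UMIs, and 1 cell alone had 463 CCL2 UMIs. A CXCL8 UMI was found in 66.5, 59.0, 18.2 and 25.9% of fibroblast-like cells with a CCL2 UMI and in 60.4, 48.2, 17.4 and 16.7% of those without, in Injury_1, Injury_2, Normal_1 and Normal_2. In blood endothelial-like cells the shares were 76.3, 61.7, 43.7 and 66.0% against 55.8, 41.6, 18.2 and 43.6%. In pericyte-like cells they were 72.4, 65.0, 44.3 and 62.2% against 61.6, 42.9, 37.7 and 37.5%. The share was higher in cells with CCL2 in each sample of these classes, by under 1 percentage point in fibroblast-like cells of Normal_1, and the cells with CCL2 were also the deeper ones.

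CCL19, the CCR7 ligand, was found mainly in pericyte-like cells. It reached 561 and 576 CPM in Injury_1 and Injury_2 and 67.9 and 160 CPM in Normal_1 and Normal_2, and the injured mean was 4.98 times the normal mean. The 2 injured samples lay within 15 CPM of each other and well above both normal samples. The log2 difference of 2.22 was 2.89 without Normal_2 and 1.76 without Normal_1. A CCL19 UMI was found in 341 of 1350 pericyte-like cells, which were 155, 130, 23 and 33 cells in the same order, and CCL19 was among the leading genes of this cluster. After thinning the share was 20.4, 17.3, 4.42 and 6.50%.

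Elsewhere CCL19 was near 0 or rested on few cells. Fibroblast-like cells had 378 UMIs in 77 of 8921 cells, at 19.3, 1.70, 0.31 and 0.77 CPM, so that Injury_1 alone gave most of them, and 44 of these cells were in cluster 5. Lymphatic endothelial-like cells had 31 UMIs, all in 1 cell of Injury_2, where the class stood at 110 CPM. Neutrophil-like cells had 11 UMIs in 1 cell of Injury_1, at 101 CPM of the class. Dividing cells of cluster 19 had 64 UMIs in 7 cells, at 129 CPM in Injury_1 and 30.2 CPM in Injury_2. The values of 129, 110 and 101 CPM were above the CCL19 level of pericyte-like cells in Normal_1. In blood endothelial-like cells CCL19 was found in 13 of 5309 cells and in T and NK-like cells in 0 of 1087. The latter allows a share of cells with a UMI of up to 0.276% by counting error alone. It sets no limit on cells that express CCL19.

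Within the pericyte-like class, cells with a CCL19 UMI differed from those without in several other genes. For the genes of this paragraph the order was alike in injured and normal samples, which did not hold for every gene compared. CCL21, the other CCR7 ligand, was 1509, 424, 399 and 352 CPM in cells with CCL19 and 149, 25.5, 10.7 and 46.8 CPM in cells without, in the order Injury_1, Injury_2, Normal_1 and Normal_2. The secreted WNT antagonist FRZB was 87.5 ± 38.9 against 12.4 ± 7.07 CPM, and the extracellular matrix protein OLFML2B was 92.9 ± 47.9 against 17.4 ± 14.03 CPM, each higher in 4 of 4 samples. CCL2 was 5465 ± 3489 against 2217 ± 1487 CPM and VCAM1, an adhesion molecule for leukocytes, 125 ± 86.0 against 51.2 ± 52.1 CPM, also higher in 4 of 4 samples.

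Other genes of the class ran the opposite way. RGS5, a regulator of G protein signalling that marks pericytes, was 831, 644, 809 and 419 CPM in cells with CCL19 and 1720, 1977, 2095 and 1432 CPM in cells without. APOD, an apolipoprotein, was 338 ± 206 CPM in cells with CCL19 and 2838 ± 1344 CPM in cells without, and was lower in 4 of 4 samples. CXCL8 was 2594 ± 1968 and 2366 ± 1112 CPM and higher in 2 of 4 samples. The order of CXCL10, another chemokine, differed by condition. In Injury_1 and Injury_2 it was 552 and 231 CPM with CCL19 and 342 and 104 CPM without. In Normal_1 and Normal_2 it was 11.1 and 5.59 CPM with CCL19 and 42.7 and 8.72 CPM without. The chemokine CCL11 was higher with CCL19 in 3 of 4 samples. The genes compared here were chosen after values had been seen, and cells with and without a UMI come from the same libraries, so these are descriptions.

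**Figure D4:**
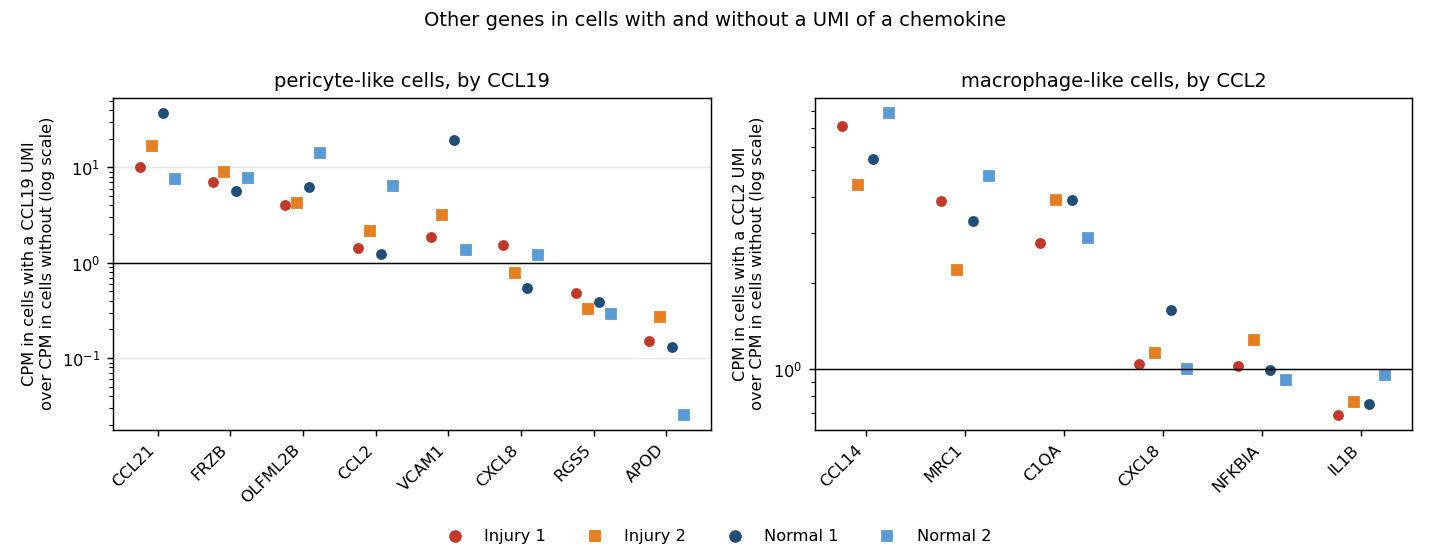
Ratio (log axis) of the CPM of other genes in cells with a UMI of a chemokine over cells without, for CCL19 in pericyte-like cells (left) and CCL2 in macrophage-like cells (right), 1 point per sample with the line at a ratio of 1. CCL21, FRZB and OLFML2B lie above 1 in all 4 samples and RGS5 and APOD below 1, while CCL14, MRC1 and C1QA lie above 1 on the right.

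The same view of macrophage-like cells set those with a CCL2 UMI (413 cells) beside those without. CCL14, a chemokine, was 1187, 1003, 3222 and 2179 CPM in cells with CCL2 and 167, 227, 594 and 276 CPM in cells without. The mannose receptor MRC1 was 1402 ± 473 against 410 ± 127 CPM and the complement chain C1QA 4353 ± 2750 against 1376 ± 1000 CPM, each higher in 4 of 4 samples. IL1B, an inflammatory cytokine, was 49454 ± 19143 against 61569 ± 14589 CPM and lower in 4 of 4 samples. Not every gene compared had 1 order, since CXCL8 was higher with CCL2 in 3 of 4 samples and NFKBIA in 2 of 4. CX3CR1 was 157 and 70.3 CPM with CCL2 in Normal_1 and Normal_2, against 23.7 and 11.5 CPM without. In Injury_1 and Injury_2 it was 6.19 and 4.35 CPM with CCL2 and 7.25 and 5.30 CPM without. These genes too were chosen after values had been seen.

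Of the receptors of the 3 chemokines, CXCR1 and CCR7 could be read. CXCR1, a CXCL8 receptor, was found in 15 of 213 neutrophil-like cells, and in 2 of 779 macrophage-like and 2 of 1087 T and NK-like cells. CCR7, the receptor of CCL19 and CCL21, was found in 44 of 222 B-like cells, 72 of 413 cells of the unnamed cluster 14 led by CD74 and HLA-DRA, 33 macrophage-like cells and 9 T and NK-like cells. The decoys ACKR2 and ACKR4 were found in 188 and 155 of 8921 fibroblast-like cells, at means of 2.65 and 2.31 CPM. CCR2, CXCR2, ACKR1 and CCRL2 were not analysed here.

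Injury minus normal was tested for the other genes with edgeR's quasi-likelihood test on UMIs summed per sample, in the 7 classes with at least 20 cells in each sample. Of all genes tested, 0% were called in fibroblast-like, blood endothelial-like, pericyte-like, smooth muscle-like and T and NK-like cells, 1.73% in epithelial-like and 0.462% in macrophage-like cells, at an adjusted p below 0.05. At an unadjusted p below 0.05, 6.22% of all genes were higher and 4.8% lower in fibroblast-like, 4.0% and 2.71% in blood endothelial-like, 4.98% and 4.58% in pericyte-like, 2.84% and 1.97% in smooth muscle-like, and 5.36% and 5.96% in T and NK-like cells. In epithelial-like cells these shares were 9.4% and 11.1% and in macrophage-like cells 6.76% and 6.4%, and counts of list genes at that p can be read against them. Counts of called genes changed with the tool, and DESeq2 called 274 genes in fibroblast-like, 50 in blood endothelial-like, 78 in pericyte-like, 9 in smooth muscle-like, 39 in T and NK-like, 507 in epithelial-like and 65 in macrophage-like cells.

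Among other chemokine ligands, 11 of the 40 listed genes carried a symbol, and edgeR called none in any class. In fibroblast-like cells 0 of 7 were called by edgeR, 3 had an unadjusted p below 0.05 and DESeq2 called 3. The median log2 fold change of the 7 was 2.44, beside 0.00 for all genes. The 7 genes were low in this class, at most 40.5 CPM in any sample. CCL11, the gene at the median, was 12.1, 19.97, 2.2 and 3.9 CPM in Injury_1, Injury_2, Normal_1 and Normal_2. CXCL9 was 27.4 CPM in Injury_1 but 0.28 CPM in Injury_2. CXCL10 and CCL14 ran the other way, with log2 fold changes of -0.16 and -0.57. In pericyte-like cells 0 of 3 were called, all 3 (CCL11, CCL21 and CXCL10) had an unadjusted p below 0.05 and DESeq2 called 2, with a median of 2.69. In blood endothelial-like cells 0 of 5 were called, 2 had an unadjusted p below 0.05 and DESeq2 called 0. In macrophage-like cells 0 of 4 were called, 1 was higher and 1 lower at an unadjusted p below 0.05, and DESeq2 called 1 lower.

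CCL21, which shares CCR7 with CCL19, was 70642 CPM in Injury_1 and 32058 CPM in Injury_2 in lymphatic endothelial-like cells. In pericyte-like cells it was 723, 179, 52.4 and 84.7 CPM, with an adjusted p of 0.162 from edgeR. CCL11, an eosinophil attractant, was 86.0, 111, 31.0 and 27.8 CPM in pericyte-like cells, with both injured samples higher and an adjusted p of 0.073.

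The interferon-induced ligands of CXCR3 varied widely between rabbits. CXCL10 was 431, 153, 39.3 and 8.33 CPM in pericyte-like cells (adjusted p = 0.107 from edgeR) and 200, 30.1, 71.4 and 8.69 CPM in blood endothelial-like cells. CXCL9 in blood endothelial-like cells was 183 CPM in Injury_1 and at most 11.9 CPM in the other 3 samples, and CXCL11 was 164 CPM in Injury_1 and at most 33.4 CPM in the others. CXCL9 and CXCL11 were thus high in 1 library.

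CCL14 was 691, 610, 2110 and 1696 CPM in macrophage-like cells, with both injured samples lower and an adjusted p of 0.057 from edgeR, and averaged 59.2 CPM in blood endothelial-like cells. CXCL5, which like CXCL8 attracts neutrophils, was 192 and 163 CPM in lymphatic endothelial-like cells of Injury_1 and Injury_2, 577 and 154 CPM in their neutrophil-like cells, and averaged 151 CPM in cluster 16.

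Of the chemokine receptors, 13 of 24 carried a symbol, and edgeR called 1 in 1 class. CX3CR1, the receptor of fractalkine that marks resident macrophages and monocytes, fell in macrophage-like cells from 100 and 55.4 CPM in the normal to 6.71 and 4.83 CPM in the injured samples (log2 fold change -3.72, adjusted p = 0.0170 from edgeR). It rested on 39 UMIs in the normal and 28 in the injured samples, and DESeq2 also called 1 receptor lower in that class. CXCR6 averaged 330 ± 100 CPM and CXCR4, the CXCL12 receptor, 59.5 ± 22.3 CPM in T and NK-like cells, and CXCR4 averaged 62.4 ± 19.7 CPM in macrophage-like and 113 ± 65.4 CPM in B-like cells. CCR1 in neutrophil-like cells rested on 3 UMIs.

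Genes of the NF-kB response, the signalling route through which cytokines induce CCL2 and CXCL8, were tested next, with 20 of 32 listed genes carrying a symbol. In epithelial-like cells 1 of 14 was called, NFKB1, a subunit of NF-kB, which fell from 121 and 117 CPM in the normal to 52.4 and 43.8 CPM in the injured samples (log2 fold change -1.57, adjusted p = 0.0398 from edgeR). No gene of the list was called lower in this class without TMM factors, with a mitochondrial limit of 10%, or without either of Injury_1 and Injury_2. In the other 6 classes edgeR called 0. At an unadjusted p below 0.05, 6 of 18 genes were higher in injured fibroblast-like, 4 of 18 in blood endothelial-like, 3 of 15 in smooth muscle-like, 6 of 15 in pericyte-like, 3 of 15 in T and NK-like and 2 of 16 in macrophage-like cells. DESeq2 called 4, 3, 1, 3, 1 and 0 genes higher in the same classes. Lower at that p were 1 gene in pericyte-like, 1 in T and NK-like and 4 in macrophage-like cells, of which DESeq2 called 1 in pericyte-like cells. In epithelial-like cells 2 were higher and 4 lower at that p, and DESeq2 called 1 higher and 2 lower.

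TNFAIP6, an anti-inflammatory secreted protein, had an adjusted p of 0.117 in fibroblast-like cells, where it was 1218, 729, 120 and 151 CPM, and was named after its values were seen. The medians of the NF-kB list were 0.25 in fibroblast-like, 0.54 in blood endothelial-like, 0.20 in pericyte-like and -0.11 in macrophage-like cells on the log2 scale. The medians of all genes in these classes lay between -0.01 and 0.01.

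Early-response genes such as FOS, JUN and DUSP1 are induced within minutes by stimuli that include tissue dissociation, and edgeR called none of them in any class. Of 14 tested in pericyte-like cells, 7 were higher and 2 lower in the injured samples at an unadjusted p below 0.05, and DESeq2 called 1. For fibroblast-like cells the counts were 2 and 1 of 15, and DESeq2 called 1. For blood endothelial-like cells they were 2 and 1 of 14, and DESeq2 called 0. Smooth muscle-like cells had 4 higher and 2 lower of 14, epithelial-like cells 1 and 2 of 14, T and NK-like cells 1 and 3 of 12 and macrophage-like cells 0 and 2 of 14, and DESeq2 called 0, 2, 1 and 0 genes. The median log2 fold changes were 0.73, 0.32 and 0.67 in pericyte-, fibroblast- and blood endothelial-like cells, and those of the other classes are not given here. The 2 genes lower in pericyte-like cells were HSPA8 (-0.87) and HSPB1 (-0.88). In epithelial-like cells NR4A2 (1.17) was the gene higher at that p, and FOSL1 (-1.58) and MYC (-1.11) were lower. The part of dissociation in the chemokine levels was not tested.

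Genes that act with CCL19 in lymphoid stroma and dendritic cells (11 of 19 with a symbol) had 0 calls by edgeR in every class. In fibroblast-like cells 4 of 8 and in blood endothelial-like cells 3 of 6 were higher at an unadjusted p below 0.05, with DESeq2 calling 2 and 0. In pericyte-like cells 2 of 4 were higher (CCL21 and VCAM1) and 1 lower (APOD), and DESeq2 called 2 higher and 1 lower. In T and NK-like cells 2 of 3 were lower and in macrophage-like cells 1 of 5 was higher at that p, and DESeq2 called 0 in both. VCAM1 was 171, 87.1, 11.9 and 29.9 CPM in pericyte-like cells, with an adjusted p of 0.107 from edgeR.

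Genes whose pattern was most like each chemokine were ranked by Pearson's r over 28 class-by-sample values among 4820 genes, as a description whose points share 4 libraries. For CCL2 the nearest was NFKBIA (r = 0.897), the inhibitor that NF-kB itself induces, and CPNE8, JAK2 and TAMALIN were also among the nearest. For CXCL8 the nearest were SLC11A2 (r = 0.879), PSTPIP2, LGMN, CTBS and ACO1. For CCL19 the nearest were the pericyte potassium channel gene KCNJ8 (r = 0.951) and CCL11 (r = 0.934), followed by OLFML2B, FRZB and CCL21. KCNJ8 was among the fixed markers that named pericyte-like cells, where most CCL19 UMIs lay. These r values therefore cannot be told apart from membership of that class. By Spearman's rho KCNJ8 ranked 58, CCL11 47, OLFML2B 399, FRZB 3 and CCL21 149. Within pericyte-like cells KCNJ8 was 12.7 ± 4.58 CPM in cells with a CCL19 UMI and 20.8 ± 8.87 CPM in cells without, and was higher with CCL19 in 1 of 4 samples.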

How the data were processed

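Single cells of bladder mucosa from 4 rabbits were captured and sequenced by the authors, who made whole-number UMI counts per gene and barcode with Cell Ranger 6.0.1. The deposited counts had not been normalized. The genome build is not given in the sources used here. Barcodes with at least 500 UMIs, 200 genes and at most 15% mitochondrial UMIs were kept. Cells were normalized to 10000 UMIs and integrated with Seurat 5.3.0 in R 4.3.3 (2000 variable genes, 30 components, resolution 0.8). Doublets were scored with Scrublet (scanpy 1.11.5), and clusters with over 50% high scores stayed unnamed. All 3 chemokines were among the variable genes, so an alternative clustering left out chemokine genes.

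UMIs were summed per sample and class. Tests used edgeR 4.0.16 (quasi-likelihood, TMM, filterByExpr, Benjamini-Hochberg 0.05 over all genes of a class), with DESeq2 1.42.0 as an alternative, and the edgeR step was tested on simulated data. Log2 differences of the chemokines used CPM plus 10. Genes were named by rule: the 3 chemokines, chemokine ligands and receptors that were called or averaged 50 CPM in a class, the receptors of the 3, up to 3 called genes per list and class, and the 5 most alike genes, of which 1 is not reported here. The members and lists were chosen with earlier results of these data known. Each library is 1 rabbit, so p-values rest on 2 rabbits per condition. Alternatives changed the tool, the filters, the clustering, the doublets, the scale, the pairing and the samples left out. High doublet scores were left in except in that alternative. The smallest classes, under 20 cells in a sample, were not tested. Intervals and limits cover counting error only, and depth was 28745017 to 47881609 UMIs per library.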

Additional observations from a re-analysis of the deposited data

Results flagged for a closer look

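CCL2 moved in opposite directions in different classes. In macrophage-like cells the injured samples were lower, with a log2 difference of -2.10. The difference was 2.57 in fibroblast-like, 1.70 in blood endothelial-like, 1.62 in pericyte-like and 1.36 in smooth muscle-like cells. In each of these classes the 2 conditions did not overlap. Of all genes, 16.8% in fibroblast-like, 22.7% in blood endothelial-like, 19.4% in pericyte-like and 19.6% in smooth muscle-like cells had both injured samples higher. In macrophage-like cells 18.1% had both injured samples lower. The chemokines were chosen on these values, so nothing is read from the order. The normal macrophage-like values came from only 50 and 65 cells. Per UMI of the C1Q chains the conditions overlapped in macrophage-like cells. The difference between the classes was not tested.

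Barcodes that failed the filters, which entered no comparison and whose mean mitochondrial share was 25.4 to 35.4%, had more of the 3 chemokines in the injured than in the normal samples. In the injured samples CCL2 averaged 317 CPM, CXCL8 1902 CPM and CCL19 47.2 CPM in these barcodes, and in the normal samples 132, 576 and 5.41 CPM. For each chemokine the 2 conditions did not overlap. The share of all genes with that order was not computed for these barcodes, so nothing is read from it.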

How the results depend on the processing

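The 3 chemokines were not tested because they were chosen on these values, and with 2 rabbits per group the spread between rabbits limits all values. Over 16 differences of the chemokines and 154 alternatives, 134 stayed within 1 SD, 19 moved further and 1 changed sign, CXCL8 in macrophage-like cells at -0.11 without Normal_1. The causes of the changes were not tested.

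On the log2 scale CXCL8 in smooth muscle-like cells (1.02) was 3.17 with a mitochondrial limit of 10%, 0.80 without the 5% of cells of highest doublet score and 0.74 with each cell counted the same. CXCL8 in T and NK-like cells (2.95) was 4.51 with that limit. In 2 alternatives added after seeing the data, CXCL8 over all kept cells (2.50) was 0.82 at an equal class mix, and leaving out the 1% of cells of largest count gave 3.15 for CCL2 and 2.85 for CXCL8 in fibroblast-like, 2.44 for CCL2 in smooth muscle-like and 2.02 for CXCL8 in T and NK-like cells.

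Leaving out each sample gave 1.19 to 1.75 for CCL2, 2.14 to 2.99 for CXCL8 and 1.39 to 1.74 for CCL19 over all kept cells. In fibroblast-like cells it gave 2.32 to 2.79 for CCL2 and 2.22 to 2.64 for CXCL8, in blood endothelial-like cells 1.03 to 2.16 and 0.10 to 2.18, and in smooth muscle-like cells 0.72 to 1.94 and 0.86 to 1.21. In pericyte-like cells it gave 0.95 to 2.93 for CCL2, 1.00 to 1.62 for CXCL8 and 1.76 to 2.89 for CCL19. CXCL8 ranged over 0.020 to 2.25 in epithelial-like, 2.44 to 3.74 in T and NK-like and -0.11 to 0.94 in macrophage-like cells, and CCL2 over -2.67 to -1.17 in macrophage-like cells.

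Counts of genes called are given for fibroblast-, blood endothelial-, smooth muscle-, pericyte-, epithelial-, T and NK- and macrophage-like cells in this order, where edgeR called 0, 0, 0, 0, 122, 0 and 21. DESeq2 called 274, 50, 9, 78, 507, 39 and 65, and edgeR with no filter on low counts 581, 2, 114, 299, 960, 201 and 236. With the replicate number as a block edgeR called 58, 3, 1, 0, 25, 4 and 36. Samples of equal number share only that number, with correlations of deviations between -0.01 and 0.20. The 10% limit gave 18, 50, 3 and 3 in pericyte-, epithelial-, T and NK- and macrophage-like cells, leaving out doublets 23 in pericyte- and 9 in macrophage-like cells, and resolution 0.3 gave 5 in macrophage-like cells. Leaving out each sample gave 0 to 42, 0 to 39, 0 to 10, 90 to 393, 58 to 476, 11 to 273 and 43 to 337, where the lone sample of a group is assumed to vary like the others. Over the 5 gene lists, 2 calls, both lower, became 29 with DESeq2 (21 higher, 8 lower), 63 with no filter (41 and 22), 7 with the replicate block (6 and 1, with none in epithelial-like cells, so that the call of NFKB1 was lost), 5 without doublets (2 and 3) and 9 to 39 without each sample. Of the 5 genes most like each chemokine, Spearman's rho kept 3 for CCL2, 1 for CXCL8 and 1 for CCL19 among the nearest 5, and a pseudocount of 1 CPM kept 3 for CXCL8.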
